A study of Mus musculus with 4 samples.

Results

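The 9 genes described here belong to the neutrophil primary granule and to the promyelocyte, the precursor in which those granules are made. They are the granule enzyme genes Elane, Mpo, Prtn3 and Ctsg, the promyelocyte product genes Fcnb and Ms4a3, and the transcription factor genes Cebpe, Cebpa and Gfi1. They are 9 of the 21154 genes that had a named probe on the array, and each was represented by 1 probe with 1 spot per array. The set was chosen with the values of these same arrays in view, so its values are a description and carry no test. RNA came from bone marrow of C57BL/6 mice of the genotype JAK2V617F/Ezh2Δ/Δ. Marrow of JAK2V617F;Ezh2flox/flox;Cre-ERT2 donors had been placed in lethally irradiated wild-type CD45.1+ hosts, Ezh2 had then been deleted, and the hosts were given JQ1 or the solvent DMSO for 2 weeks. JQ1 is a small molecule that displaces BET bromodomain proteins from acetylated histones. Cells were sorted right after the course as LSK cells (stem and multipotent progenitors that lack lineage markers and carry c-Kit and Sca-1) or as MEP cells (megakaryocyte and erythroid progenitors). Each cell type under each treatment was 1 group with 1 array, which makes 4 arrays, all on 1 slide, and every group carried both the JAK2 mutation and the Ezh2 deletion. The promoter that drives Cre, the age and number of the mice, any pooling and the gate that defined MEP cells are not given in the sources used here. It is likewise not stated whether surviving host cells were kept out of the sort.

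Neutrophils form their granules in waves. In the promyelocyte, C/EBP alpha, PU.1, Runx1 and Myb switch on the genes of the primary (azurophil) granule, whose serine proteases are trimmed to their active form by cathepsin C and stored on the proteoglycan serglycin. C/EBP epsilon and Gfi1 then carry the cell into the myelocyte stage, where primary granule transcription ends and secondary granule proteins such as lactoferrin and cathelicidin are made. Transcripts of the primary granule enzymes appear early, at low level already in multipotent cells primed for the myeloid lineage, and are abundant in granulocyte-monocyte progenitors. MEP cells lie on the other branch of the myeloid tree.

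The promoters of the 4 enzyme genes and of Fcnb are shown. All 5 genes lay above the median gene after JQ1 in MEP cells in the comparison below, as did Ms4a3, Cebpe and Gfi1, which are not shown. Each run covers 250 bases before and 50 bases after the RefSeq start site, read 5′ to 3′ on the gene's strand (GRCm38.p6). The positions are chr10:79886062-79886361 (plus strand) for Elane, chr10:79879417-79879716 (plus) for Prtn3, chr11:87793534-87793833 (plus) for Mpo, chr14:56102525-56102824 (minus) for Ctsg and chr2:28084829-28085128 (minus) for Fcnb. Capitals mark every match, on either strand, to the letters GAGGAA (a PU.1 core), TTNNGNAA (C/EBP), TGTGGT (Runx) or TAACNG (Myb).
Elane: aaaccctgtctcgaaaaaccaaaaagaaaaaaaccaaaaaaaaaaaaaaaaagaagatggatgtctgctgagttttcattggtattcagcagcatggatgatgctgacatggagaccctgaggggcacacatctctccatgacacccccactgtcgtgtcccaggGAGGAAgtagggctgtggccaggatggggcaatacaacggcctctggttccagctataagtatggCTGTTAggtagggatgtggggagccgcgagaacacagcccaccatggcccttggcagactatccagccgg
Prtn3: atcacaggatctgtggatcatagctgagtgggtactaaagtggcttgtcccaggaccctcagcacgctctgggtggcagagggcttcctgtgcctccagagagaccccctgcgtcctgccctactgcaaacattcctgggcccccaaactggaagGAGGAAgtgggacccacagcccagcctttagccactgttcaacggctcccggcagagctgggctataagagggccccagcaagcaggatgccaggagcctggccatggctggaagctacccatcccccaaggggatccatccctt
Mpo: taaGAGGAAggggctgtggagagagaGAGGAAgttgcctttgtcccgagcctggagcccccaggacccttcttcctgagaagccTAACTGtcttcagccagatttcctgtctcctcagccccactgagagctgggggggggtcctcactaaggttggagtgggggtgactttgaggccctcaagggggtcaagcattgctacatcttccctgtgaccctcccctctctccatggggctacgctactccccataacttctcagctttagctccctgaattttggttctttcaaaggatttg
Ctsg: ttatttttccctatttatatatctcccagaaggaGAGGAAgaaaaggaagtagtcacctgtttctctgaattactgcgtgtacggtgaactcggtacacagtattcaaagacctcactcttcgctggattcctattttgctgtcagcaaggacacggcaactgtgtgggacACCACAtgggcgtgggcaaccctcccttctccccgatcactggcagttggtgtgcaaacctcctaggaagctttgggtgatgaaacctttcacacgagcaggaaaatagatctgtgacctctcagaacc
Fcnb: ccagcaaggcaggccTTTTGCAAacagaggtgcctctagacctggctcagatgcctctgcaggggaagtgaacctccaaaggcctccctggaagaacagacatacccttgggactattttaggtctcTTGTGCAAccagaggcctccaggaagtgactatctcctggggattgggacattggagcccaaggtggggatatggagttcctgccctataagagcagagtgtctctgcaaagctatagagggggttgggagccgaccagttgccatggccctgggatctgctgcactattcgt

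The PU.1 letters stood in all 4 enzyme promoters, at position -85 from the start site in Elane, -95 in Prtn3, -216 in Ctsg and -247 and -224 in Mpo. In Elane and Prtn3, which are adjacent genes, the match thus lay at a similar distance from the start. The Fcnb window held no such match and had 2 C/EBP matches, at positions -235 and -123. RefSeq promoters were at hand for 8 of the 9 genes, Cebpe being the other. Over these 8 genes the PU.1 letters occurred in 5 (the enzymes and Ms4a3), the C/EBP letters in 3 (Fcnb, Ms4a3 and Gfi1), the Myb letters in 2 (Elane and Mpo) and the Runx letters in 1 (Ctsg). Of all 32851 promoter windows of 300 bases, 28.3% held the PU.1 letters, 40.7% the C/EBP letters, 23.3% the Myb letters and 16.8% the Runx letters. In Ms4a3 the PU.1 match at position 36 lay directly before a C/EBP match at 42. A match is a run of letters and was not tested for binding.

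Each array had 62976 spots, and between 45.2% and 53.2% of its 55681 probes were well above background. The DMSO MEP array stood apart: across 23013 probes it correlated at 0.973 to 0.976 with the others, whereas r was 0.991 between the LSK arrays and 0.979 and 0.982 between each of them and JQ1 MEP. It is the one DMSO MEP array, so MEP differences between JQ1 and DMSO cannot be given without it. On that array 16 immediate early genes and nuclear noncoding RNAs were high: 13 were at least 2-fold above DMSO LSK, and 15 were at least 2-fold lower on the JQ1 MEP array (median -1.75 log2). Their part in the values of the granule genes was not tested. The comparison of JQ1 MEP with JQ1 LSK does not use that array, but it is a difference between cell types and not a JQ1 difference. Most markers of the labelled cell types went with the labels. Under DMSO the LSK markers Flt3 (-1.71), Hlf (-1.18), Cd34 (-0.88), Procr (-0.68) and Kit (-0.67) were lower in MEP than in LSK cells. Meis1 (-0.04) was level and Mecom (0.87) was higher, all in log2 relative to the median gene. Ly6a, which encodes Sca-1, read 4.49 and 4.28 log2 units on the LSK arrays and -0.32 and 0.22 on the MEP arrays, and the summed signal of 8 MEP markers was 40.5 and 47.1 times the 75th percentile on the LSK arrays and 174 and 277 times on the MEP arrays (DMSO and then JQ1).

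A level below is log2 of a probe's signal over the 75th percentile of its array, and a difference is a difference of levels, in log2, less the difference of the median measured gene. A gene was called higher or lower when that difference reached 1, which is 2-fold. With 1 array per group there is no replicate, no test and no p-value. Array error is given instead. The scanner software's error was 0.144 log2 for a level and 0.20 for a difference of the enzyme genes, and different probes of 1 gene disagreed with an SD of 0.26 log2 in the LSK comparison and 0.39 in the MEP comparison. Levels of different genes come from different probes and are not compared. Scaling to the array median or to spike-in probes, without taking off the median gene, put that gene itself at 0.26 or 0.63 log2 for JQ1 in LSK cells and at 0.75 or -0.53 for JQ1 in MEP cells. Directions below are therefore relative to the median gene, and for the 9 genes it is said where a scaling turns them. Levels and summed signals are the exception, being over the 75th percentile without centring. On that scale the median gene itself stood at 0.06 log2 for JQ1 in LSK cells and at 0.34 for JQ1 in MEP cells.

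The primary granule enzymes were lower in LSK cells and higher in MEP cells after JQ1, relative to the median gene, although spike-in scaling turned Ctsg in both cell types and Mpo in MEP cells. In LSK cells the 4 enzymes had a median difference of -0.76 log2, and in MEP cells of 0.53. Of the 4, Elane had the widest swing, 2.13-fold lower in LSK cells and 2.65-fold higher in MEP cells. In MEP cells Elane stood clear of the other enzymes, whereas in LSK cells the gaps between enzymes next to each other in size (Elane, Mpo, Prtn3, Ctsg) were within the scanner error.

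Elane encodes neutrophil elastase, the serine protease mutated in cyclic and severe congenital neutropenia. In LSK cells its level was 5.73 under DMSO and 4.71 under JQ1 (signals of 11186 and 6397), and in MEP cells it was 5.25 and 6.99 (12411 and 29606). The JQ1 MEP array was thus the highest and the JQ1 LSK array the lowest, with the DMSO arrays between them. The JQ1 difference was -1.09 ± 0.20 (scanner error) in LSK cells, where 339 of 12328 genes (2.75%) were as far down, and 1.40 ± 0.20 in MEP cells, where 45 of 12550 genes (0.359%) were as far up. Both signs held under every scaling tried, at -1.12 to -0.45 in LSK cells and 0.88 to 2.16 in MEP cells, but neither value reached 2-fold with spike-in scaling, nor did that of LSK cells with scaling to the array median (-0.83) or without the background filter (-0.94).

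Mpo encodes myeloperoxidase, the haem enzyme that makes hypochlorous acid in the phagosome. Its level was 9.96 under DMSO and 9.18 under JQ1 in LSK cells, and 9.41 and 10.16 in MEP cells. No spot on any array was saturated, including this bright probe, whose signal ran from 141694 to 267286. JQ1 LSK was again the lowest array and JQ1 MEP the highest, but the span was narrower than that of Elane. The JQ1 difference was -0.85 ± 0.20 in LSK cells, which kept its sign under every scaling, and 0.41 ± 0.20 in MEP cells, which turned to -0.11 when the arrays were scaled to their spike-in probes.

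Prtn3 encodes proteinase 3, the close relative of elastase that is the target of autoantibodies in vasculitis. It read 6.09 under DMSO and 5.47 under JQ1 in LSK cells, and 5.05 and 6.03 in MEP cells. The DMSO LSK and JQ1 MEP arrays were alike, and the other two lay lower. Its JQ1 difference was -0.68 ± 0.20 in LSK cells and 0.65 ± 0.20 in MEP cells, with signs that held under every scaling (down to -0.05 in LSK and 0.12 in MEP with spike-in scaling). Ctsg, the gene of cathepsin G, read 9.27 and 8.75 in LSK cells and 8.48 and 9.20 in MEP cells. It had the smallest differences of the enzymes, -0.58 in LSK cells and 0.37 in MEP cells, and both changed sign with spike-in scaling, to 0.05 and -0.15. In MEP cells the differences of Mpo and Ctsg lay close to the spread between probes of a gene.

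**Figure D1:**
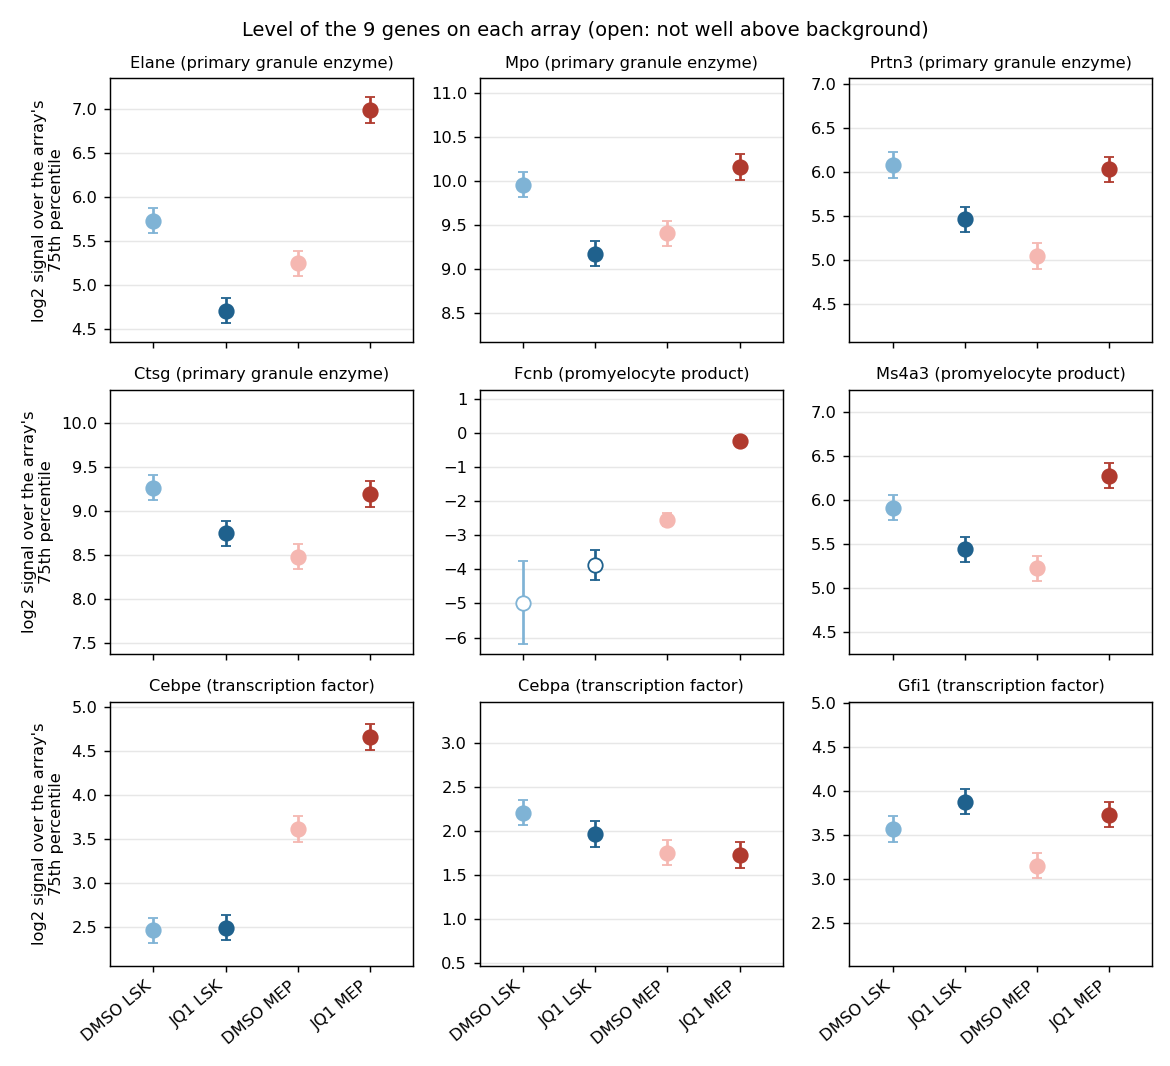
Level of each of the 9 genes on the 4 arrays, as log2 signal over the array's 75th percentile (y axis, its own range for each gene); each point is 1 array, bars show the scanner software's error and open points were not well above background. In Elane, Mpo, Prtn3, Ctsg and Ms4a3 the JQ1 LSK array lies below DMSO LSK and the JQ1 MEP array above DMSO MEP on this scale, Fcnb is above background on the MEP arrays alone, and Cebpe is higher on both MEP arrays than on both LSK arrays.

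The promyelocyte products went with the enzymes in MEP cells. Fcnb encodes ficolin B, a lectin of the complement system made by immature myeloid cells. It was not well above background on either LSK array (signals of 6.65 and 16.7). In MEP cells it read -2.54 under DMSO and -0.25 under JQ1, from signals of 56.1 and 196. Both MEP readings were above background, and the JQ1 reading was the higher by 3.88-fold (1.95 ± 0.24 log2). In that comparison 17 of 12550 genes (0.135%) were as far up. The sign held under every setting in which the gene was measured, but the size was 1.18 with the normexp background correction.

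Ms4a3 encodes a four-span membrane protein whose expression marks granulocyte-monocyte progenitors. It read 5.92 under DMSO and 5.44 under JQ1 in LSK cells, and 5.23 and 6.28 in MEP cells. JQ1 MEP was the highest array, as for Mpo, but here DMSO MEP was the lowest. Its JQ1 difference was 0.71 ± 0.20 in MEP cells, positive under every scaling, and -0.53 ± 0.20 in LSK cells, which turned to 0.10 with spike-in scaling.

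The transcription factors did not share the pattern of the enzymes over both cell types. In MEP cells alone, Cebpe went with the enzymes. Cebpe, the factor that moves promyelocytes into the myelocyte stage, read 2.46 under DMSO and 2.49 under JQ1 in LSK cells, and 3.61 and 4.66 in MEP cells. The LSK arrays were level with each other, both MEP arrays were higher, and the JQ1 difference in MEP cells was 0.71 ± 0.20 with a positive sign under every scaling. In LSK cells it was -0.03, with no settled sign across scalings (-0.08 to 0.60).

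Cebpa, the factor without which granulocyte-monocyte progenitors do not form, read 2.21 and 1.96 in LSK cells and 1.75 and 1.73 in MEP cells, DMSO first. The MEP arrays were alike and the JQ1 differences were -0.31 in LSK cells and -0.36 in MEP cells, of which the first turned to 0.33 with spike-in scaling and the second to 0.39 with scaling to the array median. Gfi1, a repressor that favours neutrophils over monocytes, read 3.57 and 3.88 in LSK cells and 3.15 and 3.73 in MEP cells. Its JQ1 difference was 0.25 in LSK cells and 0.24 in MEP cells, within the spread between probes of a gene, and the MEP value turned to -0.28 with spike-in scaling.

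Counted together, 1 of the 8 genes measured in LSK cells was lower by 2-fold (Elane) and 0 were higher, where 3.22% of all 12328 genes were lower and 0.543% higher. Below the median gene lay 7 of these 8, with a median of -0.56 log2. In MEP cells all 9 were measured, and 2 (Elane and Fcnb) were higher by 2-fold and 0 lower, where 0.98% of all 12550 genes were higher and 5.77% lower. Above the median gene lay 8 of the 9, and the median was 0.65. With scaling to the array median, where the median gene itself stood at 0.75, 7 were higher by 2-fold in MEP cells. With spike-in scaling, where it stood at -0.53, 1 was. The shares over all genes were not counted at these 2 scalings, so these counts have no background beside them. As the genes were chosen on these arrays, the centred counts are set beside the background and nothing is read from the gap. In bulk RNA, fewer cells that carry a transcript and less of it per cell cannot be told apart. The summed signal of the 9 genes over the 75th percentile, not centred on the median gene, was 1818 under DMSO and 1147 under JQ1 in LSK cells. In MEP cells it was 1172 and 2046. The bright probes of Mpo and Ctsg weigh most in this sum.

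The spread among the genes within 1 comparison does not depend on how an array is scaled by 1 number. In MEP cells the JQ1 difference of Elane exceeded that of Mpo by 0.99 ± 0.29 (scanner error), that of Ctsg by 1.03 and that of its neighbour Prtn3 by 0.76. Elane minus Fcnb was -0.55 ± 0.31. Elane was also further down than these enzymes in LSK cells, by -0.24 against Mpo, -0.41 against Prtn3 and -0.50 against Ctsg. Mpo and Ctsg differed by 0.04 in MEP cells, which is within the scanner error. Elane thus differed from the other enzymes by more than the scanner error in MEP cells, whereas its gap to Mpo in LSK cells was within that error. In MEP cells Elane exceeded Cebpa by 1.77 and Gfi1 by 1.16, and Mpo exceeded Gfi1 by 0.17.

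**Figure D2:**
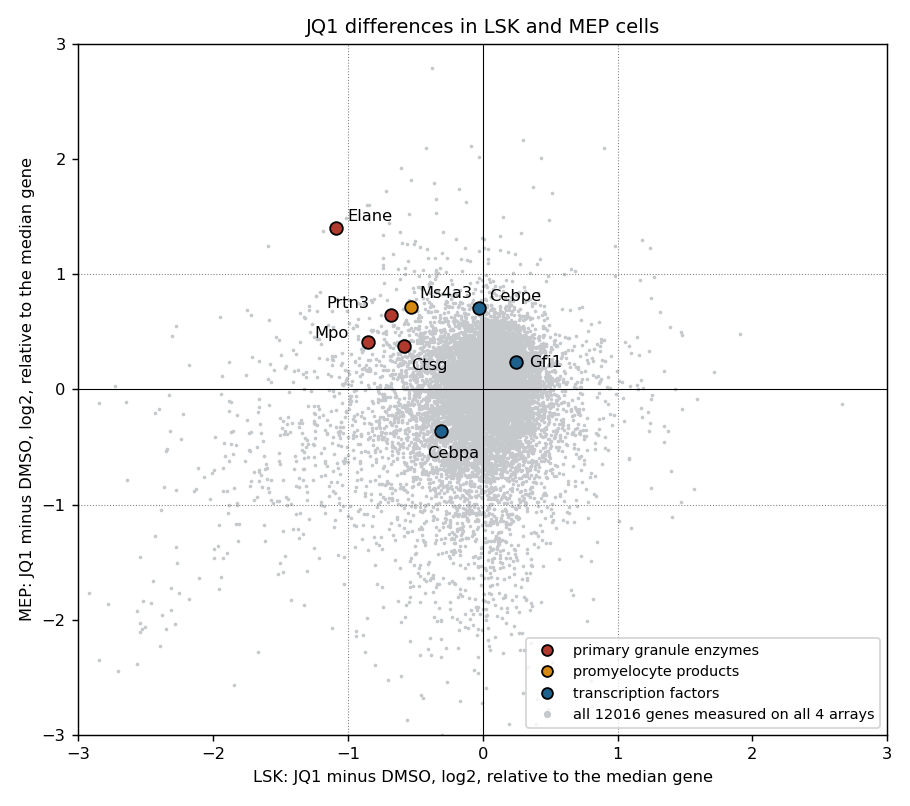
JQ1 difference in LSK cells (x axis) against that in MEP cells (y axis), both log2 relative to the median gene, for the 8 genes measured on all 4 arrays (coloured by role) and for all 12016 genes measured on all 4 (grey, 7 of them outside the axes); dotted lines mark 2-fold. Elane, Mpo, Prtn3, Ctsg and Ms4a3 lie at the upper left on this scale, with spike-in scaling turning the MEP sign of Mpo and Ctsg and the LSK sign of Ctsg and Ms4a3, while Cebpa and Gfi1 lie near the centre.

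The next comparison asked how far the JQ1 difference in MEP cells departed from that in LSK cells. This difference of differences was 2.49 ± 0.29 (scanner error) for Elane, and 13 of 12016 genes were as far up. It was 1.33 for Prtn3, 1.26 for Mpo, 1.25 for Ms4a3 and 0.96 for Ctsg. Cebpe stood at 0.74, and Cebpa and Gfi1 stood at -0.06 and -0.01. Of the 8 genes measured on all 4 arrays, 4 were past 2-fold on the MEP side and 0 on the LSK side, where 3.37% of all genes were past it on the MEP side and 5.83% on the LSK side. The SDs between probes of 1 gene in the LSK and MEP comparisons, taken as independent, combine to 0.47 log2, which all of these values but those of Cebpa and Gfi1 exceeded. Scaling to spike-in probes took Elane to 1.33, Prtn3 to 0.17, Mpo to 0.10 and Ms4a3 to 0.09, and reversed Ctsg to -0.20 and Cebpe to -0.42. It put Cebpa at -1.22 and Gfi1 at -1.17, past 2-fold on the LSK side, whereas scaling to the array median put them at 0.44 and 0.49, so these genes have no settled sign.

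MEP and LSK cells were then compared directly under each treatment, and these comparisons share their arrays with the ones above. Under DMSO the 4 enzymes were between -0.82 and -0.27, lower in MEP cells than in LSK cells, although all 4 turned positive with spike-in scaling (0.09 to 0.64). Under JQ1 the same genes were between 0.38 and 2.21, higher in MEP cells under every scaling. Elane was 4.63-fold higher, Mpo 1.89-fold, Prtn3 1.41-fold and Ctsg 1.3-fold. Ms4a3 went from -0.47 under DMSO, positive at 0.44 with spike-in scaling, to 0.76 under JQ1, positive throughout.

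Fcnb and Cebpe were above LSK cells under both treatments. Fcnb was at least 2.35-fold higher in MEP cells under DMSO and at least 11.8-fold higher under JQ1, as it was not well above background on the LSK arrays. These are bounds against the lowest signal well above background or the probe's own reading, whichever was higher. Cebpe was 2.58-fold higher under DMSO (1.37 ± 0.20) and 4.27-fold higher under JQ1 (2.09 ± 0.20). Cebpa (-0.24 and -0.31) and Gfi1 (-0.20 and -0.22) were a little below the median gene under both treatments, with the DMSO signs turning positive under spike-in scaling. Of 8 measured genes 1 was higher by 2-fold under DMSO and 0 lower, where 5.68% of 12407 genes were higher and 4.32% lower. Under JQ1, 2 of 8 were higher (Elane and Cebpe) and 0 lower, where 3.94% of 12263 genes were higher and 4.01% lower.

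**Figure D3:**
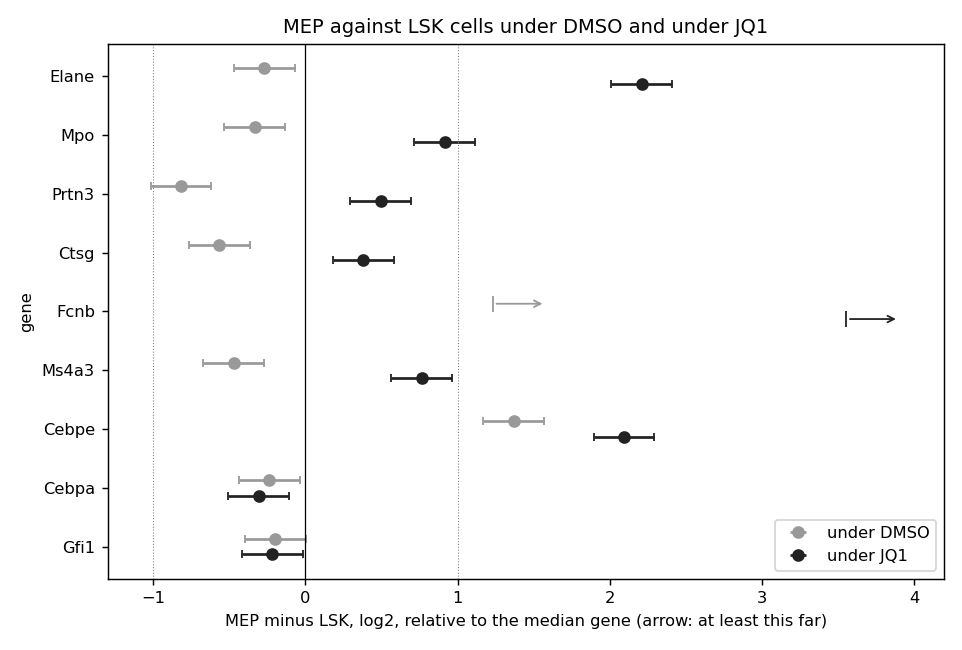
Difference between MEP and LSK cells for each gene under DMSO (grey) and under JQ1 (black), log2 relative to the median gene; bars show the scanner software's error, arrows mark lower bounds, and dotted lines mark 2-fold. Under JQ1 the enzymes, Fcnb, Ms4a3 and Cebpe lie to the right of 0, under every scaling for all but Fcnb, whose bound was read on this scale alone. Under DMSO all but Fcnb and Cebpe lie to the left of 0, a side that spike-in scaling turns.

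Other genes of granule building and of the neutrophil pathway were read from lists drawn up with earlier results of these data known. Of 27 measured genes for protease maturation and granule storage, 5 were lower and 0 higher by 2-fold in LSK cells (median -0.31), and 1 was lower and 1 higher in MEP cells (median 0.11). Ctsc, whose product activates the serine proteases, stood at -0.29 in LSK cells and 0.27 in MEP cells. Prss57, a further serine protease of the primary granule, stood at -0.44 and 0.49. Srgn, the gene of serglycin, stood at 0.08 and -0.05. Ctsc and Prss57 thus had the signs of the enzymes, Ctsc at smaller size in both cell types, and Srgn had values near 0.

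The genes furthest from 0 in this list in LSK cells were the protease inhibitor gene Slpi (-1.86), the haptoglobin gene Hp (-1.51), the complement factor D gene Cfd (-1.36) and Igsf6 (-1.22). Hp (0.43) and Igsf6 (0.44) lay above the median gene in MEP cells, as the enzymes did, and Slpi (-0.11) and Cfd (-0.29) below it. Furthest from 0 in MEP cells were the lysozyme genes Lyz2 (-1.26) and Lyz1 (-0.72), the glutathione transferase gene Gstm1 (1.14) and the cystatin gene Cst7 (0.56). Lysozyme, which is also made by monocytes, therefore went the other way from Elane in MEP cells. Lyz1 and Lyz2 are near-identical copies, so their probes may share signal.

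Among 25 measured regulators of granulocyte fate in LSK cells, 5 were lower and 0 higher by 2-fold (median -0.26), and among 26 in MEP cells 4 were lower and 0 higher (median -0.10). Irf8, the factor that directs progenitors to monocytes and dendritic cells, was at -1.47 in LSK cells and -0.39 in MEP cells. Lef1 (-2.31 and -1.92) and Id3 (-1.94 and -1.63) were lower in both. Klf4, a monocyte-promoting factor that is also an early response gene, was at -0.80 and -2.40, and Trib1, which promotes decay of C/EBP alpha, at -0.28 and -1.29. The 2 probes of Trib1 differed in sign in LSK cells (-0.28 and 0.17). Of the activators of primary granule promoters named above other than Cebpa, Spi1, which encodes PU.1, stood at -0.28 and -0.47, beyond the spread between probes of a gene in both. Runx1 at 0.04 and -0.14 and Myb at 0.18 and 0.10 were within it. Cebpb, a related factor of emergency granulopoiesis, stood at -0.07 and 0.12.

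Receptors for granulocyte growth factors had a median of -0.12 in LSK cells, with 1 of 13 lower (Csf1r, the macrophage colony-stimulating factor receptor, -1.60, with its 3 probes between -1.86 and -0.15), and of -0.28 in MEP cells, with 1 of 13 lower. That 1 gene was Csf3r, the receptor for granulocyte colony-stimulating factor, at -1.29, from levels of 8.05 on DMSO MEP and 7.09 on JQ1 MEP. In LSK cells Csf3r stood at -0.12. The receptor and the granule enzymes therefore lay on opposite sides of the median gene in MEP cells.

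Secondary and tertiary granule genes, which are made after the primary granule, were divided. In LSK cells 4 of 12 measured genes were higher by 2-fold and 2 lower, with 6 above and 6 below the median gene (median -0.06). The higher ones were the cathelicidin gene Camp (1.91), the alarmin S100a9 (1.47), Chil3 (1.27) and Wfdc21 (1.24), and S100a8 stood just short at 0.98. The lower ones were the lipocalin gene Lcn2 (-1.05) and Ifitm6 (-1.81), and Cyba (-0.68) and Pglyrp1 (-0.58) were also on the side of Elane. Genes well above background on only 1 LSK array are not in these counts. The lactoferrin gene Ltf (level -1.37) and Ngp (-1.53) were above it on JQ1 LSK alone. Mmp8 (-1.69) and Cybb (-2.79) were above it on DMSO LSK alone. The lowest level well above background was -3.56 on DMSO LSK and -4.36 on JQ1 LSK. In MEP cells 1 of 14 was higher and 1 lower (median 0.26), with Wfdc21 at 1.23, S100a8 at 0.98, Chil3 at 0.97 and Camp at 0.48. Ifitm6 was the lower one there (-1.17). Later granule genes thus lay on both sides of the median gene in LSK cells, where all 4 primary granule enzymes lay below it.

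**Figure D4:**
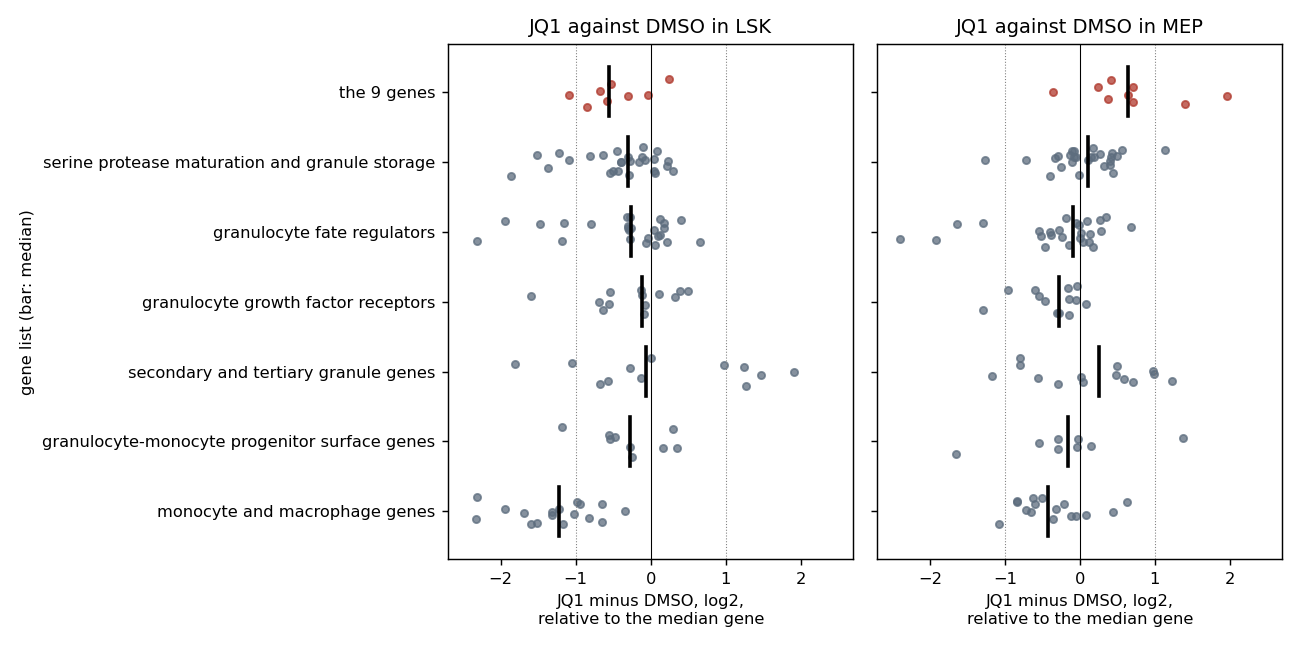
JQ1 difference, log2 relative to the median gene, of every measured gene in 7 gene groups in LSK cells (left) and MEP cells (right); points are genes, black bars are medians and dotted lines mark 2-fold. The 9 genes (red) have medians of -0.56 and 0.65, and the monocyte and macrophage genes lie below 0 in LSK cells with a median of -1.23; with spike-in scaling the median of the 9 genes becomes 0.075 in LSK cells and 0.12 in MEP cells.

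Markers of other myeloid cells moved with these genes in part. Of 17 monocyte and macrophage genes in LSK cells, 11 were lower by 2-fold and 0 higher (median -1.23), led by F13a1 (-2.33), Ly86 (-2.32) and Fn1 (-1.95), and the summed signal of 5 monocyte markers was 101 times the 75th percentile under DMSO and 35.1 times under JQ1. In MEP cells 1 of 16 was lower by 2-fold and 13 lay below the median gene (median -0.43). The sums of the 5 markers there were 32.5 and 39.5, and those of the whole list 118 and 113. Sums are not centred, and the median gene was itself 0.34 log2 higher under JQ1 in MEP cells on their scale. Granulocyte-monocyte progenitor markers, 6 of 7 on the array and all above background on every array, summed to 457 under DMSO and 461 under JQ1 in LSK cells, and to 400 and 273 in MEP cells. The bright probes of Cd34 and Csf3r weigh most in these sums. In LSK cells Cd34 (0.34) lay above the median gene and the other five below it: Irf8 (-1.47), Csf2ra (-0.63), Fcgr2b (-0.56), Fcgr3 (-0.48) and Csf3r (-0.12). In MEP cells Fcgr3 (0.15) lay above it and the other five below: Csf3r (-1.29), Csf2ra (-0.46), Irf8 (-0.39), Cd34 (-0.29) and Fcgr2b (-0.29).

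Mature neutrophil markers summed to 20.5 under DMSO and 39.3 under JQ1 in LSK cells, and to 143 and 285 in MEP cells. On DMSO LSK 5 of 8 were above background (not Ltf, Ngp and Retnlg), on JQ1 LSK and JQ1 MEP 6 (not Mmp8 and Retnlg), and on DMSO MEP 8. The uncentred sum was thus higher on both MEP arrays than on both LSK arrays and higher under JQ1 in each cell type, S100a8 and S100a9 making up most of it on the MEP arrays. Single markers were divided after JQ1. Camp (1.91 in LSK and 0.48 in MEP cells), S100a8 (0.98 in both) and S100a9 (1.47 and 0.50) were higher. Lcn2 (-1.05 and -0.28) was lower in both, and in MEP cells Ltf (-0.79) was lower and Ngp (0.04) level. Eosinophil, basophil and mast cell markers summed to 157 and 124 on the LSK arrays and 49.9 and 48.7 on the MEP arrays, and lymphoid markers to 293 and 197 and to 53.9 and 42.8 (DMSO and then JQ1). The bright probe of Dntt weighs most in the lymphoid sums on the LSK arrays. Its JQ1 difference was -0.12 in LSK cells and 0.475 in MEP cells. The other lymphoid markers were lower in LSK cells by more than their sum shows: Igll1 (-2.56), Vpreb1 (-2.46), Rag1 (-2.43) and Ebf1 (-2.35). In MEP cells these genes stood at -2.38, -1.86, -0.21 and -2.08. The part of any of these cell types in the values of the granule genes was not tested.

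Genes next to the enzymes in the RefSeq gene order were read as well. Prtn3 lies directly before Elane and Cfd directly after it. Cfd, a serine protease gene of the same cluster that is known from neutrophil granules and fat cells, was at -1.36 in LSK cells and -0.29 in MEP cells, so it went with its neighbours in LSK cells alone. The flanking genes Ptbp1 (0.06 and 0.39), Plppr3 (0.04 and -0.48), Med16 (-0.34 and 0.07) and R3hdm4 (-0.18 and -0.30) stayed within 0.5 log2 of the median gene.

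Around Mpo, the related peroxidase gene Lpo was at -0.80 in LSK cells and -0.55 in MEP cells, and the eosinophil peroxidase gene Epx, the third gene on that side, at 0.09 and -0.93. Rnf43 stood at -0.98 and -0.08, Tspoap1 at -0.33 and -1.90, Mks1 at 0.18 and -0.40, and Supt4a had no named probe. In MEP cells the 5 measured neighbours of Mpo all lay below the median gene, where Mpo lay above it. Around Ctsg, the mast cell and basophil protease gene Mcpt8 was at -0.79 and 0.26, the same sides of the median gene as Ctsg, and Mcpt4 at -0.03 and 1.20. Mcpt4 was far lower on both MEP arrays than on the LSK arrays (-9.09 under DMSO and -7.87 under JQ1), unlike Ctsg (-0.57 and 0.38). Gzme, Gzmd and Gzmg were not well above background on any array, and Mcpt9 was on 1.

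The genes most like Elane over the 4 arrays, by Euclidean distance between centred log2 levels among 12016 genes, were Gpx3 (0.26), Prl2c1 (0.34), Pgam2 (0.36), Hsd11b1 (0.37), C3 (0.40), Zfp773 (0.41), Copz2 (0.41) and Rtn1 (0.44). None of them was another primary granule gene: Mpo came at rank 147, Ms4a3 at 191, Cebpe at 394, Prtn3 at 769 and Ctsg at 1094. The nearest to Mpo were Dmkn (0.09), Gm1604b (0.11), App (0.13), Afap1 (0.13), Rbp4 (0.17), 4732471J01Rik (0.17), Gp1ba (0.17) and Hyou1 (0.17), with Ms4a3 at rank 59, Ctsg at 145, Prtn3 at 269 and Elane at 8529. With 4 points per profile, many genes lie close together by this measure.

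**Figure D5:**
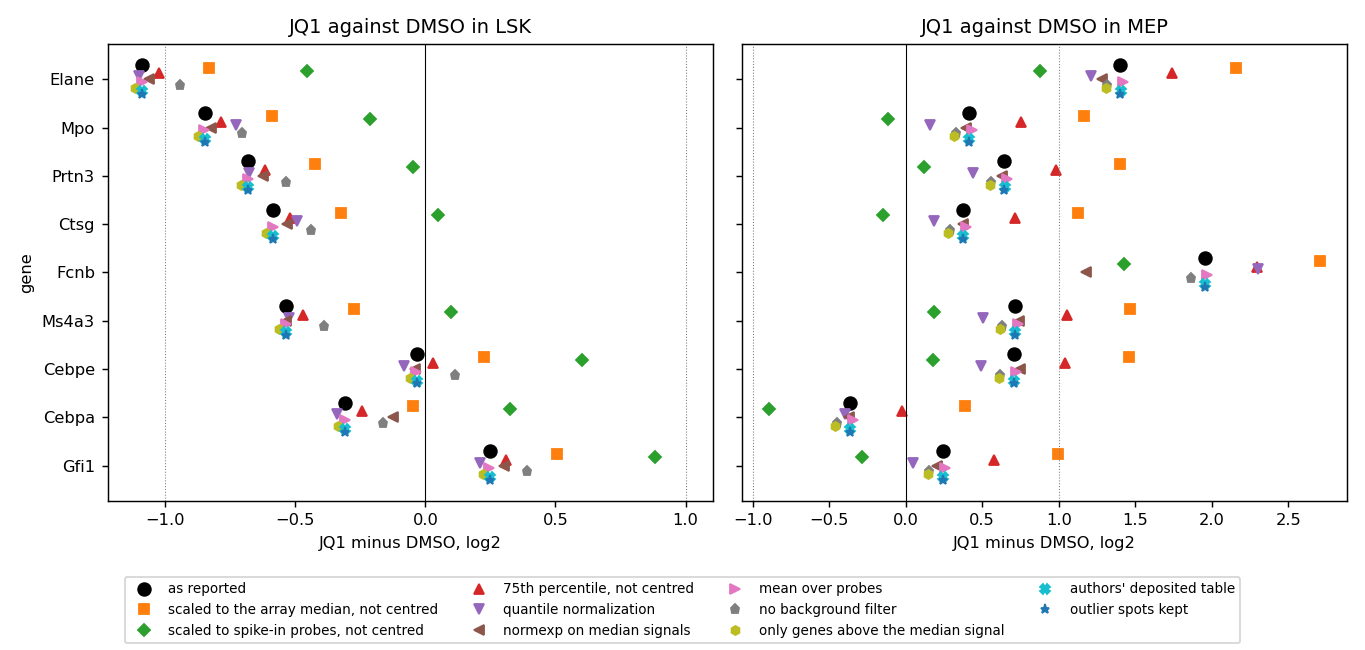
JQ1 difference of each gene in LSK cells (left) and MEP cells (right), in log2, as reported (black circles) and under 10 other settings of scaling, background correction, probe choice and filter; settings named not centred are not relative to the median gene. Elane is negative in LSK cells and positive in MEP cells under every setting, Fcnb is positive in MEP cells under every setting in which it was measured, and spike-in scaling (green) turns Ctsg, Ms4a3, Cebpa and Cebpe positive in LSK cells and Mpo, Ctsg and Gfi1 negative in MEP cells.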

How the data were processed

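RNA of 4 sorted samples was hybridised to one-colour arrays from 20 ng of total RNA, labelled with Cy3 and mixed with spike-in controls, per the labels' protocols. Agilent Feature Extraction 10.7.1.1 read the scans, per the file headers. The deposited scanner files give background-subtracted, detrended signals as intensity, the software's error, and other yes or no marks per spot (above background, saturated, outlier). The authors' deposited table holds a linear ratio: within 1% it is the intensity divided by 1 constant per array (210, 244, 326 and 233) for 100% of probes with a table value above 1, to 3 digits. The deposited intensity was put on the log2 scale, averaged over spots without an outlier mark and reduced by the log2 75th percentile of the array. Per-array precision was an SD of 0.124 to 0.135 log2 between replicate spots of a probe and a median scanner error of 10.1%. Probes were named through transcript accessions in RefSeq (GRCm38.p6): 28026 of 55681 received 1 symbol and 27655 none. The arrays were designed on another assembly, so positions are given for RefSeq promoters alone. A gene was its brightest probe, measured where well above background on both arrays. Differences were centred on the median measured gene (0.06, 0.34, -0.22 and 0.07 log2 taken off for JQ1 in LSK cells, JQ1 in MEP cells, and the cell types compared under DMSO and JQ1). As each of the 9 genes had 1 probe, a planned look at disagreement between their probes showed nothing. The genes named are the 9, the 4 furthest from 0 per list and JQ1 comparison (and others a result turns on), 3 neighbours on each side of Elane, Mpo and Ctsg, and 8 nearest profiles. The 9 genes and the 12 lists were chosen with earlier results of these data known. Alternatives covered 10 settings. The normexp correction (limma 3.58.1, R 4.3.3, offset 50) used median spot signals in place of the planned means, which the files lack. The procedure was run on simulated data with planted changes well past the 2-fold threshold and noise below the spread between probes of a gene. That run checked the code alone and could not test the calls made here. Python 3.11.15 with numpy 2.4.6 and pandas 2.3.3 was used.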

Additional observations from a re-analysis of the deposited data

Results flagged for a closer look

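For 4 genes the JQ1 difference had opposite signs in the LSK and MEP cells, each beyond the spread between probes of a gene, relative to the median gene. Mpo in MEP cells was barely so, at 0.41 against an SD of 0.39, and was within that SD at 0.16 with quantile normalization. The MEP difference minus the LSK difference was 2.49 log2 for Elane, 1.26 for Mpo, 1.33 for Prtn3 and 1.25 for Ms4a3. With 1 array per group the difference between the cell types was not tested. The MEP values rest on the DMSO MEP array that stood apart. The comparison of MEP with LSK cells under JQ1, which leaves that array out, gave 2.21 for Elane, 0.92 for Mpo, 0.50 for Prtn3 and 0.76 for Ms4a3. That comparison holds no DMSO array, so it is a difference between cell types and not a JQ1 difference. With spike-in scaling the Mpo sign in MEP cells and the Ms4a3 sign in LSK cells turned.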

How the results depend on the processing

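No paired analysis was possible because each group has 1 array. Of 409 values of single genes under the alternatives, 350 moved by less than the spread between probes of a gene and 59 moved further. Of those 59, 33 came from scaling to 8 spike-in probes, 25 from scaling to the array median and 1 from normexp. These scalings are not centred, and the median gene then stood at 0.63 (spike-in) and 0.26 (array median) for JQ1 in LSK cells, -0.53 and 0.75 for JQ1 in MEP cells, and 0.91 and -0.32 for MEP against LSK cells under DMSO. For JQ1 in LSK cells the median of the genes was 0.075 with spike-in scaling and -0.30 with the array median, 0 were lower by 2-fold under both and without the background filter, and 1 was higher without that filter. For JQ1 in MEP cells the median was 0.12 with spike-in scaling and 1.40 with the array median. The genes higher by 2-fold there numbered 1 and 7, against 4 with the 75th percentile uncentred and 1 among genes above the median signal, where Fcnb drops out. Shares over all genes were not counted under the alternatives, so no count in this section has a background beside it. For the JQ1 difference in MEP cells minus that in LSK cells, spike-in scaling reversed the median to -0.057, with 1 higher and 2 lower by 2-fold, and the array median gave 1.60. For MEP against LSK cells under DMSO, spike-in scaling gave a median of 0.61, 2 were higher without the background filter, and 1 was lower with the array median and with the 75th percentile uncentred. For MEP against LSK cells under JQ1 the median ranged from 0.39 to 0.82, and 2 were higher by 2-fold except for 3 with the array median and without the background filter. With quantile normalization, the mean over probes, the deposited table and outlier spots kept, every comparison kept its median within the spread between probes and its counts within 1.5 times. Fcnb in MEP cells rests on a dim probe, with a scanner error of 0.186 log2 on DMSO MEP.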
